A study of Homo sapiens and Mus musculus with 18 samples.

Results

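Glycolysis and the hypoxia response were followed through 37 named genes in 2 irradiated cell lines that the labels call Burkitt lymphoma. They comprise 2 glucose transporters, 17 glycolytic enzymes, 5 genes for glycolysis regulators and lactate export, and 13 other genes of the hypoxia response. Members are the rows whose gene symbol is on this list, which was drawn up with earlier results of these data known. The table of the human line BL41 has rows for 35 of the 37 among 15069 genes, and that of the mouse line J3D for 34 among 12264, with 32 members in both. SLC16A3 and NDRG1 were not analysed here in BL41, nor Ldhb, P4ha2 and Adm in J3D.

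In glycolysis, glucose enters the cell through GLUT transporters and is converted by a chain of cytosolic enzymes to pyruvate, which lactate dehydrogenase can reduce to lactate. When oxygen is scarce, prolyl hydroxylases (EGLN1, EGLN3) no longer mark HIF1A, the oxygen-regulated subunit of hypoxia-inducible factor 1, for destruction. The stabilised factor binds hypoxia response elements, whose core is ACGTG or GCGTG, and raises transcription of most glycolytic genes, of VEGFA and of mitophagy genes such as BNIP3. Burkitt lymphoma cells, driven by MYC, are known for high glycolytic activity, and MYC and HIF1 share many glycolytic targets.

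RNA sequencing covered 18 libraries, 3 per group, with 3 groups in each line: cells given 5 Gy of protons, cells given 5 Gy of X-rays, and sham cells. Protons were delivered by raster scanning in the centre of the spread-out Bragg peak, at 129.3 to 148.2 MeV/u, where the linear energy transfer had a median of 3.5 keV/µm and spanned 2.9 to 7.9. X-rays came from a 6 MV linear accelerator, and sham cells stood at room temperature outside the incubator while the others were exposed. All cells were at passage 5 to 10, were resuspended 6 h before exposure and gave total RNA 12 h after it. Nothing in the labels ties the 3 libraries of a group to separate cultures, so the spread behind each p-value is that between these libraries and may be technical.

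The deposited values are logarithms, read as log2, centred within each number (1, 2 or 3) of the library names over 4 libraries, of which 3 were analysed here. They give differences between libraries and no absolute level, and the depth is unknown. Both lines carry the tumour type Burkitt lymphoma in the labels. The BL41 table has rows for 16 of 16 B-cell markers and 4 of 17 erythroid or megakaryocyte markers, the J3D table for 1 of 16 (Cd22) and 12 of 17, so that most defining B-cell markers have no row there and J3D goes against its label. In BL41, sham library 2 held the lowest of the 9 values for 30.2% of all genes. Number 1 had the widest values in J3D, with an interquartile range over all genes of 0.34 to 0.40 per library, against 0.14 to 0.24 in the other 6. The gene ontology terms in the tables name glycolysis for 17 of 17 enzymes in BL41 and 16 of 16 in J3D, and response to hypoxia for 3 of 12 and 3 of 11 of the other hypoxia genes. Over all genes glycolysis is named for 0.199% and 0.236%, and response to hypoxia for 0.319% and 0.457%.

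In BL41, 1 member was called higher than sham after protons and 2 after X-rays, and none lower, in the model without the number as a block. The neuronal-type glucose transporter SLC2A3 (GLUT3) was called after both beams, and the enolase ENO2 after X-rays. The module was divided in sign: 17 of 35 members had fold changes below 0 after protons (28.3% of all genes) and 18 of 35 after X-rays (31.3%). None of these passed the threshold. Among glycolytic enzymes 12 of 17 were below 0 after protons and 12 of 17 after X-rays, but 4 of 17 in number 3 for each beam. Among the other hypoxia genes 3 of 12 were below 0 after protons and 5 of 12 after X-rays. A gene was called where its limma adjusted p was under 0.05. With the number as a block, 0 of 15069 genes were called in either comparison, so these calls rest on the model without it. The 1 member that rose after protons (2.86% of 35) stands beside 5.91% of all genes, and the 2 after X-rays (5.71%) beside 4.83% of all genes. Of all genes, 0.903% fell after protons and 0.518% after X-rays, and 0 members did. At an unadjusted p under 0.05 there were 5 members after protons (28.4% of all genes) and 3 after X-rays (23.6%). Both comparisons use the same 3 sham libraries.

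**Figure D1:**
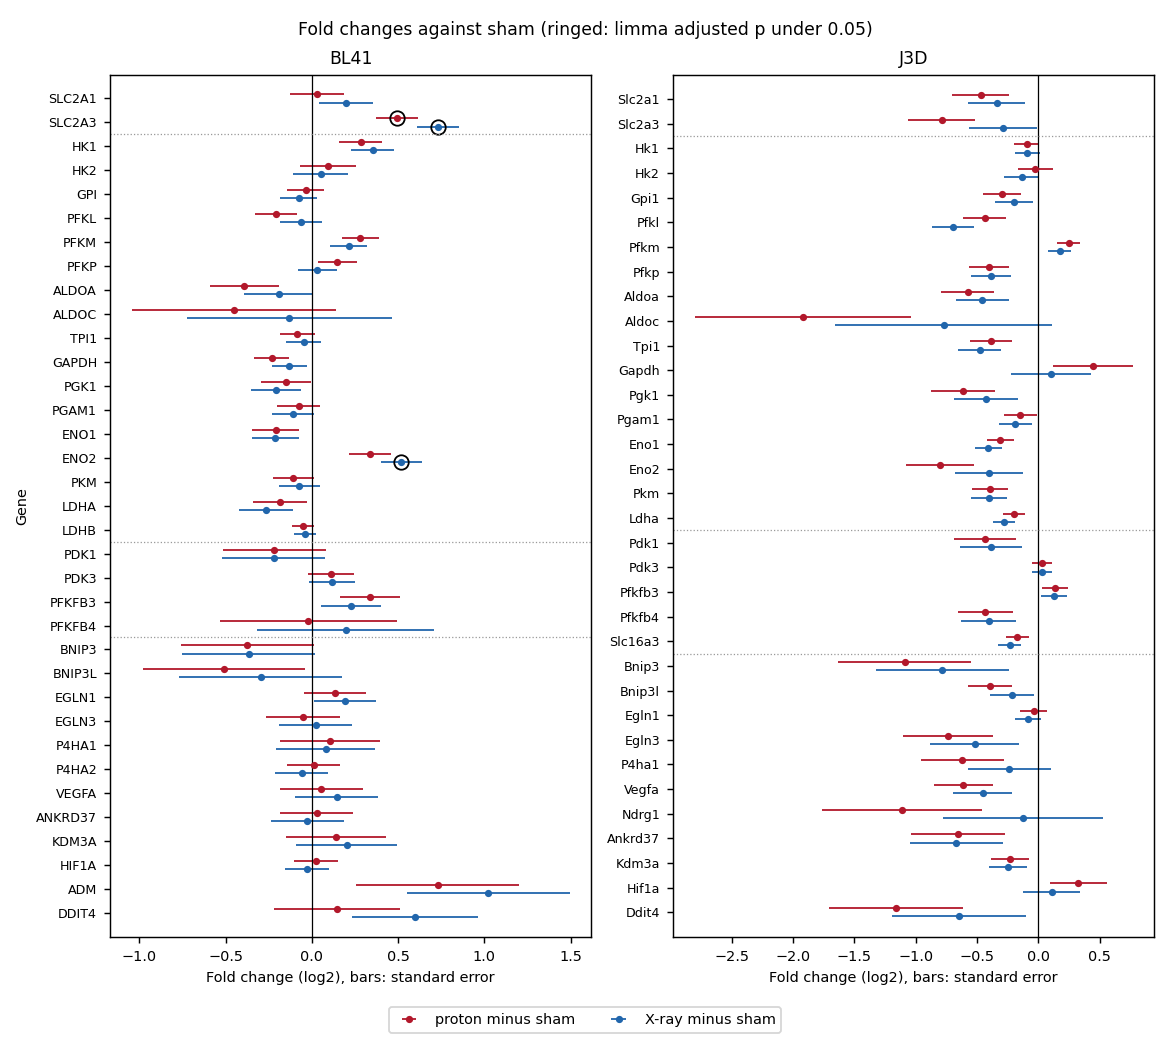
Log2 fold changes of each member against sham in BL41 (left) and J3D (right), protons in red and X-rays in blue, with bars for the standard error from limma. Dotted lines part glucose transporters, glycolytic enzymes, regulators with lactate export, and other hypoxia genes. Rings mark the 3 values with an adjusted p under 0.05, SLC2A3 after protons and after X-rays and ENO2 after X-rays in BL41; in J3D 29 of 34 values lie below 0 for each beam.

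Among the transporters, SLC2A3 (ENSG00000059804), a high-affinity glucose transporter, stood at −0.044, 0.14 and 0.13 in proton libraries 1, 2 and 3, at 0.17, 0.38 and 0.38 in X-ray libraries and at −0.16, −0.46 and −0.64 in sham libraries. Every proton and every X-ray library lay above every sham library. The fold change was 0.49 ± 0.12 after protons (SE, n = 3 per group, limma adjusted p = 0.0473) and 0.73 ± 0.12 after X-rays (limma adjusted p = 0.0210). With the number as a block the adjusted p was 0.166 for protons and 0.118 for X-rays. Leaving out 1 library took the X-ray call away for sham library 2 (limma adjusted p = 0.0609) or 3 (0.0866) and for X-ray library 1 (0.0769), 2 (0.0662) or 3 (0.0562). The proton call held in 1 of 9 such fits, that without sham library 1 (0.0290), and ranged from 0.0662 to 0.141 in the other 8. SLC2A1 (GLUT1), the widespread basal transporter, stood at −0.22, 0.075 and 0.22 in proton libraries 1, 2 and 3, at 0.18, 0.039 and 0.36 in X-ray libraries and at 0.17, −0.06 and −0.12 in sham libraries. Its groups overlap, with fold changes of 0.03 ± 0.16 after protons and 0.20 ± 0.16 after X-rays (limma adjusted p = 0.920 and 0.492).

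ENO2 (ENSG00000111674), the neuron-specific enolase, was the 1 glycolytic enzyme called in BL41. It stood at 0.10, −0.21 and 0.22 in proton libraries 1, 2 and 3, at 0.24, 0.22 and 0.19 in X-ray libraries and at −0.24, −0.16 and −0.49 in sham libraries. The X-ray libraries lie close together and all above sham, while proton library 2 lies among the sham values. ENO2 rose by 0.52 ± 0.12 after X-rays (SE, n = 3 per group, limma adjusted p = 0.0411, with the block 0.146), and had a fold change of 0.34 ± 0.12 after protons (limma adjusted p = 0.111). The X-ray call held without proton library 2 (limma adjusted p = 0.0469) and was lost without proton library 1 (0.0691) or 3 (0.0585), X-ray library 1 (0.136), 2 (0.110) or 3 (0.0838) or sham library 1 (0.0629), 2 (0.0636) or 3 (0.146). Its ubiquitous paralog ENO1 had fold changes of −0.21 ± 0.14 and −0.21 ± 0.14 after protons and X-rays (limma adjusted p = 0.333 and 0.379).

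The promoters of both enolases are shown because the fold changes of the paralogs differed in sign, a contrast that was not tested. Beside them stand those of LDHA and BNIP3, a glycolytic and a mitophagy gene known as HIF1 targets. The sequences are RefSeq windows from 250 bases before to 50 after the start of the transcript (GRCh38.p14), 5′ to 3′ on the gene's strand, and capitals mark the hypoxia response core ACGTG on either strand, so that CACGT is its reverse complement. The palindrome CACGTG, an E-box, holds the core on both strands.
ENO2, chr12:6914330-6914629, + strand: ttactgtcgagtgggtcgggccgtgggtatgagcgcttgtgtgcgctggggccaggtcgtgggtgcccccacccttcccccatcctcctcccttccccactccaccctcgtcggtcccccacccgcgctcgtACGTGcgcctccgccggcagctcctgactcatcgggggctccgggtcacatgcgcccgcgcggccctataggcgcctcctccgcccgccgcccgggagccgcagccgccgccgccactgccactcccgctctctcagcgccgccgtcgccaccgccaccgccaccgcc
ENO1, chr1:8878637-8878936, − strand: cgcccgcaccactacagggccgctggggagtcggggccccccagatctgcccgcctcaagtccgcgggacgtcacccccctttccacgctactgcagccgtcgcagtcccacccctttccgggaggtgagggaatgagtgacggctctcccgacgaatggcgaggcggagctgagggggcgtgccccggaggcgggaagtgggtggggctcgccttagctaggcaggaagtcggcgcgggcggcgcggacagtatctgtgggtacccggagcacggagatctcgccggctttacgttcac
LDHA, chr11:18394313-18394612, + strand: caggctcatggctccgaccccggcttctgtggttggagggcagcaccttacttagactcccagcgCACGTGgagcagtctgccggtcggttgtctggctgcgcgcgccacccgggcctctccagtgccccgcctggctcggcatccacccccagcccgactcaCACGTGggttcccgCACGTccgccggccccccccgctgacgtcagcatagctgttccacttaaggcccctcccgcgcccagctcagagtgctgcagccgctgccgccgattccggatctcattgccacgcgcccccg
BNIP3, chr10:131981874-131982173, − strand: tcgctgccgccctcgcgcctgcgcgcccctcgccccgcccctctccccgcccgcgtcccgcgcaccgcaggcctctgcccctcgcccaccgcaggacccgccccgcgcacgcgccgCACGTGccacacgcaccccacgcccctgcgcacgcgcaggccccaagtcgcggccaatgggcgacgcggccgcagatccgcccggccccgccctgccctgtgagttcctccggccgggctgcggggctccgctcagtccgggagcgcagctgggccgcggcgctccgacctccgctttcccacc
The ENO2 window holds 1 match to ACGTG and 0 to GCGTG, and the ENO1 window 0 and 2. The LDHA window, 1 of 2 for that gene, holds 5 matches to ACGTG, of which 4 are the strands of 2 palindromes, and 1 to GCGTG. The BNIP3 window holds 2 to ACGTG, both strands of 1 palindrome, and 4 to GCGTG. Matches to GCGTG are not in capitals. Windows were matched for 33 of 37 members (61 windows), all but SLC2A3, BNIP3L, VEGFA and NDRG1. ACGTG on either strand was in 24 of 61 windows (39.3%), against 21.4% of all 35116 promoter windows. GCGTG was in 42.6% against 36.5%, and CACGTG in 13.1% against 7.26%. Some genes have several windows, with 61 for 33 members and 35116 for 27305 genes. By gene, ACGTG was in 60.6% of these members and 24.9% of all genes, GCGTG in 63.6% and 40.6%, and CACGTG in 24.2% and 8.78%. Members were listed as glycolysis and hypoxia genes, so these shares are descriptions and no test. The letters describe the windows and do not show binding.

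Other steps of glycolysis in BL41 held values on both sides of 0. HK1, a hexokinase that phosphorylates glucose on entry, stood at −0.092, 0.15 and 0.25 in proton libraries 1, 2 and 3, at 0.26, 0.13 and 0.12 in X-ray libraries and at −0.018, −0.38 and −0.14 in sham libraries. All X-ray libraries lay above sham, and proton library 1 lay among the sham values. The fold changes were 0.28 ± 0.13 after protons and 0.35 ± 0.13 after X-rays (limma adjusted p = 0.175 and 0.129). The inducible hexokinase HK2 stood at −0.053, 0.10 and 0.29 in proton libraries 1, 2 and 3, at −0.008, −0.048 and 0.26 in X-ray libraries and at 0.24, −0.23 and 0.033 in sham libraries, with fold changes of 0.095 ± 0.16 and 0.05 ± 0.16. Its groups overlap.

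PFKM, the muscle isoform of phosphofructokinase, stood at 0.10, 0.0065 and 0.20 in proton libraries 1, 2 and 3, at −0.077, 0.24 and −0.058 in X-ray libraries and at −0.074, −0.34 and −0.12 in sham libraries. The proton libraries all lay above sham (0.28 ± 0.11, limma adjusted p = 0.133), while the X-ray libraries overlapped it (0.21 ± 0.11). GAPDH, which oxidises glyceraldehyde 3-phosphate, stood at −0.19, −0.027 and −0.012 in proton libraries 1, 2 and 3, at 0.12, −0.13 and 0.088 in X-ray libraries and at 0.17, 0.21 and 0.093 in sham libraries. It was the 1 member with every proton library below every sham library (−0.23 ± 0.10, limma adjusted p = 0.172), against 6.52% of all genes, and 0 members had every X-ray library below sham (4.61%). Without overlap above sham were 2 members after protons (28% of all genes) and 3 after X-rays (21.6%). LDHA, the lactate dehydrogenase subunit that favours lactate, stood at −0.23, −0.0042 and 0.25 in proton libraries 1, 2 and 3, at 0.058, −0.32 and 0.039 in X-ray libraries and at 0.31, 0.23 and 0.032 in sham libraries. Its groups overlap, with fold changes of −0.18 ± 0.16 and −0.26 ± 0.16. GAPDH, PGAM1, LDHA and other glycolytic genes have many near-identical processed pseudogenes, and no source used here says how shared reads were assigned, so their values are uncertain.

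By the median of each class, regulators and the other hypoxia genes varied more between libraries of 1 group than the enzymes did. PDK1, the kinase that restrains pyruvate entry into mitochondria, stood at −0.47, 0.022 and 0.54 in proton libraries 1, 2 and 3, at 0.35, −0.39 and 0.11 in X-ray libraries and at 0.57, 0.25 and −0.09 in sham libraries. PFKFB3, which makes the activator of phosphofructokinase, stood at −0.061, 0.16 and 0.53 in proton libraries 1, 2 and 3, at 0.015, 0.019 and 0.25 in X-ray libraries and at 0.081, −0.32 and −0.16 in sham libraries. Both had overlapping groups, with fold changes of −0.22 ± 0.30 and −0.22 ± 0.30 for PDK1 and 0.34 ± 0.17 and 0.23 ± 0.17 for PFKFB3 after protons and X-rays.

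HIF1A itself stood at 0.053, −0.0029 and 0.069 in proton libraries 1, 2 and 3, at 0.14, 0.041 and −0.22 in X-ray libraries and at −0.069, −0.15 and 0.26 in sham libraries, with fold changes of 0.025 ± 0.13 and −0.027 ± 0.13. Its mRNA bears on HIF activity only in part, since the protein is controlled by its turnover. The angiogenic factor VEGFA stood at −0.10, −0.13 and 0.54 in proton libraries 1, 2 and 3, at 0.18, −0.11 and 0.51 in X-ray libraries and at 0.092, 0.15 and −0.11 in sham libraries. The mitophagy receptor BNIP3 was at −0.49, −0.068 and 0.50 in proton libraries 1, 2 and 3, at 0.43, −0.83 and 0.36 in X-ray libraries and at 0.56, 0.60 and −0.10 in sham libraries. Neither separated the groups (0.056 ± 0.24 and 0.14 ± 0.24 for VEGFA, −0.37 ± 0.39 and −0.37 ± 0.39 for BNIP3).

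The vasodilator peptide ADM had the highest fold change of the members in BL41, and did not pass the test. It stood at −0.19, 0.073 and 1.02 in proton libraries 1, 2 and 3, at 0.59, −0.24 and 1.43 in X-ray libraries and at −0.084, −0.31 and −0.89 in sham libraries. The widest gaps from sham were in number 3, and the fold changes were 0.73 ± 0.47 after protons and 1.02 ± 0.47 after X-rays (limma adjusted p = 0.333 and 0.228). DDIT4 (REDD1), an inhibitor of mTORC1 signalling that p53 can also induce, stood at −0.41, −0.088 and 0.54 in proton libraries 1, 2 and 3, at 0.41, −0.021 and 1.01 in X-ray libraries and at 0.41, −0.16 and −0.64 in sham libraries. Its values overlap likewise, with fold changes of 0.15 ± 0.37 and 0.60 ± 0.37.

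The scale on which BL41 libraries are compared bears on these signs. Over all genes the median fold change was 0.12 after protons and 0.093 after X-rays, and setting each library to its trimmed mean (30% of genes trimmed at each end) moved these medians to 0.0054 and −0.0024. Members below 0 were 17 of 35 after protons (28.3% of all genes) and 18 of 35 after X-rays (31.3%), and with trimmed means 25 (48.9% of all genes) and 22 (50.4%). SLC2A3 after X-rays was then the 1 member called (0.64, limma adjusted p = 0.0383), against 2.22% of all genes, and 0 members were called after protons (2.3%). Of the members named here, HK2 changed sign after both beams, and HIF1A, VEGFA and SLC2A1 after protons. Quantile normalization called 0 members after protons (3.54% of all genes) and 0 after X-rays (0.856%), where SLC2A3 had a limma adjusted p of 0.0593. With the number as a block no gene of the table was called in either comparison.

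In J3D most of the module had negative fold changes after either beam, while no single gene of the table passed the adjusted threshold. After protons 29 of 34 members had fold changes below 0 (43% of all genes), and after X-rays 29 of 34 (49.2%). Every proton library lay below every sham library for 19 members (14.2% of all genes), and every X-ray library for 10 (5.18%). Within all 3 numbers, 24 members were lower after protons (18.2%) and 15 after X-rays (12.9%). limma called 0 of 12264 genes in either comparison, also with the block, with trimmed means and with quantile normalization. At an unadjusted p under 0.05, 10 members were lower after protons (8.71% of all genes) and 7 after X-rays (2.82%), and with the block 5 (4.08%) and 3 (1.44%). The same sham libraries serve both comparisons, and sham library 1 alone held the highest of the 9 values for 17 of 34 members (12.9% of all genes).

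**Figure D2:**
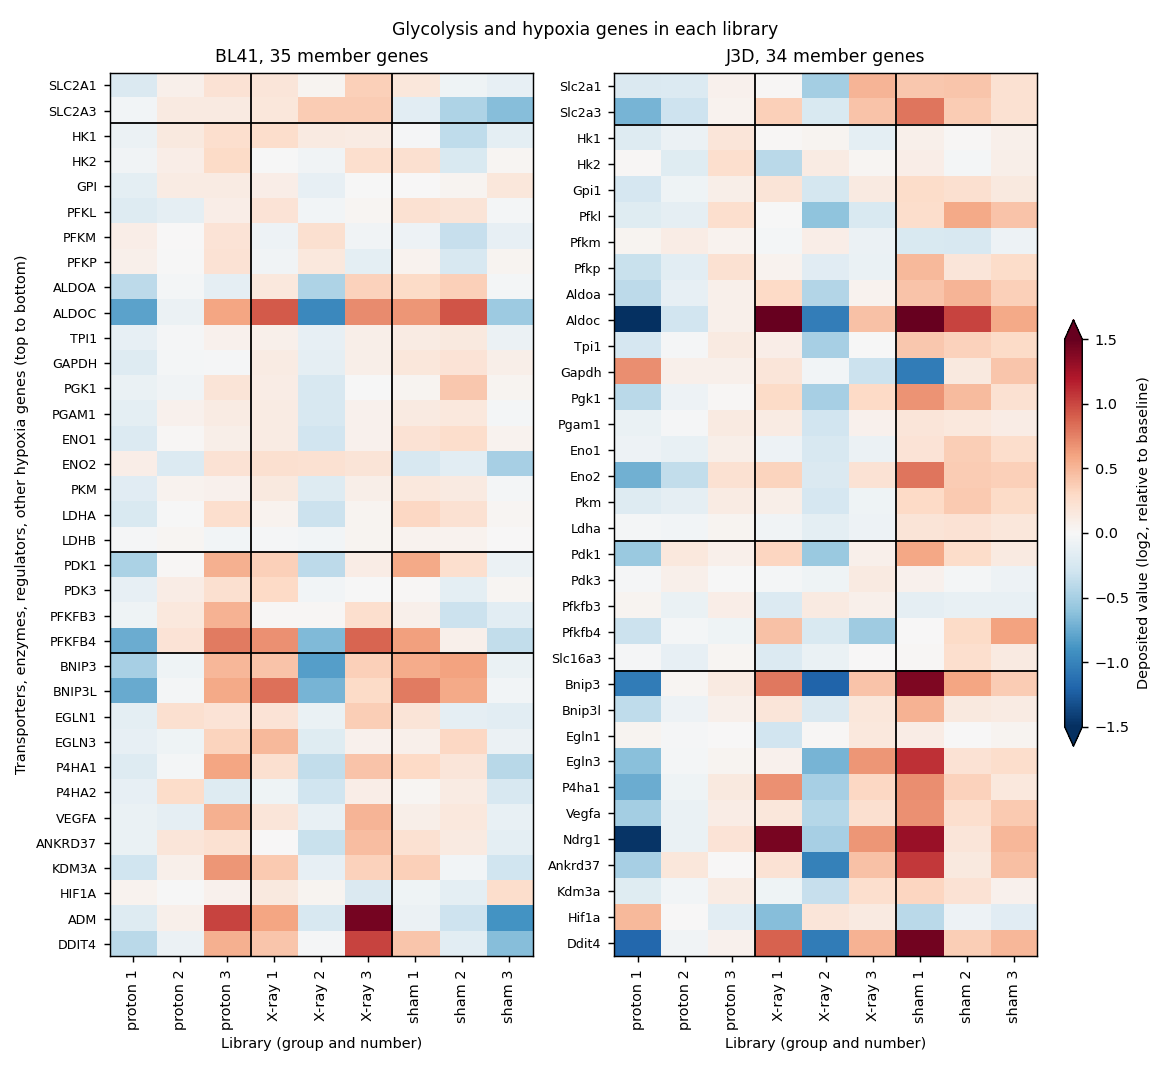
Deposited values of each member (rows) in each library (columns) of BL41 and J3D, ordered proton, X-ray and sham; blue is below and red above the mean of a number, on a log2 scale that ends at −1.5 and 1.5, beyond which values keep the end colour. In J3D the columns of proton library 1 and X-ray library 2 are mostly blue and the 3 sham columns mostly red; in BL41 proton library 1 and X-ray library 2 are the bluest columns.

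Both glucose transporters had lower values in irradiated J3D cells. Slc2a1 stood at −0.22, −0.21 and 0.064 in proton libraries 1, 2 and 3, at 0.02, −0.51 and 0.51 in X-ray libraries and at 0.40, 0.41 and 0.23 in sham libraries. Proton libraries all lay below sham (−0.47 ± 0.23, limma adjusted p = 0.262), and X-ray library 3 lay above every sham library (−0.34 ± 0.23). Slc2a3 stood at −0.70, −0.30 and 0.058 in proton libraries 1, 2 and 3, at 0.35, −0.23 and 0.42 in X-ray libraries and at 0.81, 0.38 and 0.23 in sham libraries. Its proton libraries lay below every sham library (−0.79 ± 0.28, limma adjusted p = 0.247), whereas X-ray libraries 1 and 3 lay within the sham range (−0.29 ± 0.28).

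Of the 16 enzymes, 14 were below 0 after protons and 14 after X-rays, all but Pfkm and Gapdh. Pfkl, the liver isoform of phosphofructokinase, stood at −0.18, −0.13 and 0.25 in proton libraries 1, 2 and 3, at −0.0033, −0.60 and −0.23 in X-ray libraries and at 0.26, 0.56 and 0.43 in sham libraries. Its X-ray and proton values all lay below sham, by −0.44 ± 0.17 for protons and −0.70 ± 0.17 for X-rays (limma adjusted p = 0.247 and 0.556). Pfkm, in contrast, had fold changes above 0. It stood at 0.046, 0.11 and 0.052 in proton libraries 1, 2 and 3, at −0.034, 0.10 and −0.089 in X-ray libraries and at −0.23, −0.24 and −0.077 in sham libraries. Its proton libraries all lay above sham (0.25 ± 0.094, limma adjusted p = 0.247), and X-ray library 3 just below sham library 3 (0.17 ± 0.094).

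Aldoa, the main aldolase, stood at −0.39, −0.12 and 0.081 in proton libraries 1, 2 and 3, at 0.30, −0.44 and 0.056 in X-ray libraries and at 0.43, 0.52 and 0.36 in sham libraries. Tpi1, triose phosphate isomerase, stood at −0.25, −0.014 and 0.14 in proton libraries 1, 2 and 3, at 0.10, −0.50 and −0.0027 in X-ray libraries and at 0.40, 0.34 and 0.29 in sham libraries. In both genes every irradiated library lay below every sham library. The fold changes were −0.58 ± 0.22 and −0.46 ± 0.22 for Aldoa and −0.39 ± 0.17 and −0.48 ± 0.17 for Tpi1 after protons and X-rays.

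The last steps of the pathway gave like patterns. Eno1 stood at −0.073, −0.11 and 0.089 in proton libraries 1, 2 and 3, at −0.073, −0.24 and −0.082 in X-ray libraries and at 0.21, 0.37 and 0.26 in sham libraries. Pkm, which makes pyruvate, was at −0.19, −0.14 and 0.12 after protons, 0.084, −0.25 and −0.066 after X-rays and 0.30, 0.40 and 0.29 in sham cells. Ldha was at −0.032, −0.038 and 0.045 after protons, −0.049, −0.14 and −0.073 after X-rays and 0.19, 0.22 and 0.16 in sham cells. For each of them the sham libraries lie in a narrow band above all irradiated ones. Eno1 had fold changes of −0.31 ± 0.11 after protons and −0.41 ± 0.11 after X-rays (limma adjusted p = 0.247 and 0.586), Pkm of −0.39 ± 0.14 and −0.40 ± 0.14, and Ldha of −0.20 ± 0.091 and −0.28 ± 0.091. Eno2 stood at −0.72, −0.37 and 0.22 in proton libraries 1, 2 and 3, at 0.33, −0.21 and 0.22 in X-ray libraries and at 0.81, 0.38 and 0.36 in sham libraries. It too lay below sham in every irradiated library (−0.80 ± 0.28 after protons, limma adjusted p = 0.247, and −0.40 ± 0.28 after X-rays).

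Hk2 stood at 0.013, −0.18 and 0.25 in proton libraries 1, 2 and 3, at −0.40, 0.12 and 0.029 in X-ray libraries and at 0.10, −0.033 and 0.088 in sham libraries, and its groups overlap (−0.026 ± 0.14 and −0.14 ± 0.14). A pair of enzymes was picked out after their values were seen. Gapdh stood at 0.70, 0.073 and 0.074 in proton libraries 1, 2 and 3, at 0.19, −0.045 and −0.32 in X-ray libraries and at −1.04, 0.15 and 0.41 in sham libraries, so that number 1 went opposite to numbers 2 and 3. The aldolase Aldoc had the lowest fold change of all members, −1.92 ± 0.88 after protons, and stood at −1.97, −0.29 and 0.077 in proton libraries 1, 2 and 3, at 1.86, −1.04 and 0.44 in X-ray libraries and at 1.99, 1.01 and 0.57 in sham libraries. Its proton values lay below sham in every number, with differences of −0.49 in number 3 and −3.96 in number 1.

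Pdk1 stood at −0.55, 0.16 and 0.074 in proton libraries 1, 2 and 3, at 0.32, −0.56 and 0.073 in X-ray libraries and at 0.58, 0.27 and 0.13 in sham libraries, with overlapping groups (−0.43 ± 0.25 and −0.38 ± 0.25). Slc16a3 (MCT4), the lactate exporter, stood at −0.014, −0.13 and 0.031 in proton libraries 1, 2 and 3, at −0.21, −0.11 and 0.011 in X-ray libraries and at 0.015, 0.25 and 0.13 in sham libraries. Its X-ray libraries all lay below sham (−0.23 ± 0.092, limma adjusted p = 0.711), and its proton libraries overlapped sham (−0.17 ± 0.092). Pdk3 and Pfkfb3 had fold changes from 0.030 to 0.13, above 0 for both beams, and with trimmed means Pdk3 turned to −0.012 after protons.

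By the median range over libraries the other hypoxia genes were the widest class (1.43, against 0.73 for enzymes). The largest within-group SD of a single gene was among the enzymes (1.13, against 0.83 among the other hypoxia genes). Vegfa stood at −0.51, −0.10 and 0.11 in proton libraries 1, 2 and 3, at 0.17, −0.43 and 0.24 in X-ray libraries and at 0.69, 0.25 and 0.39 in sham libraries. All irradiated libraries lay below sham (−0.61 ± 0.24 and −0.45 ± 0.24, limma adjusted p = 0.247 and 0.856). Bnip3 stood at −1.05, 0.024 and 0.13 in proton libraries 1, 2 and 3, at 0.79, −1.20 and 0.43 in X-ray libraries and at 1.40, 0.59 and 0.38 in sham libraries. Ddit4 was at −1.18, −0.051 and 0.067 in proton libraries 1, 2 and 3, at 0.88, −1.05 and 0.52 in X-ray libraries and at 1.45, 0.37 and 0.50 in sham libraries. In both genes the proton libraries lay below every sham library, whereas X-ray libraries 1 and 3 lay within the sham range. The fold changes were −1.09 ± 0.54 and −0.79 ± 0.54 for Bnip3 and −1.16 ± 0.55 and −0.65 ± 0.55 for Ddit4 (limma adjusted p from 0.255 to 0.957). Hif1a had fold changes above 0. It stood at 0.49, 0.0041 and −0.15 in proton libraries 1, 2 and 3, at −0.64, 0.18 and 0.13 in X-ray libraries and at −0.41, −0.073 and −0.16 in sham libraries, with fold changes of 0.33 ± 0.23 and 0.11 ± 0.23 and overlapping groups.

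**Figure D3:**
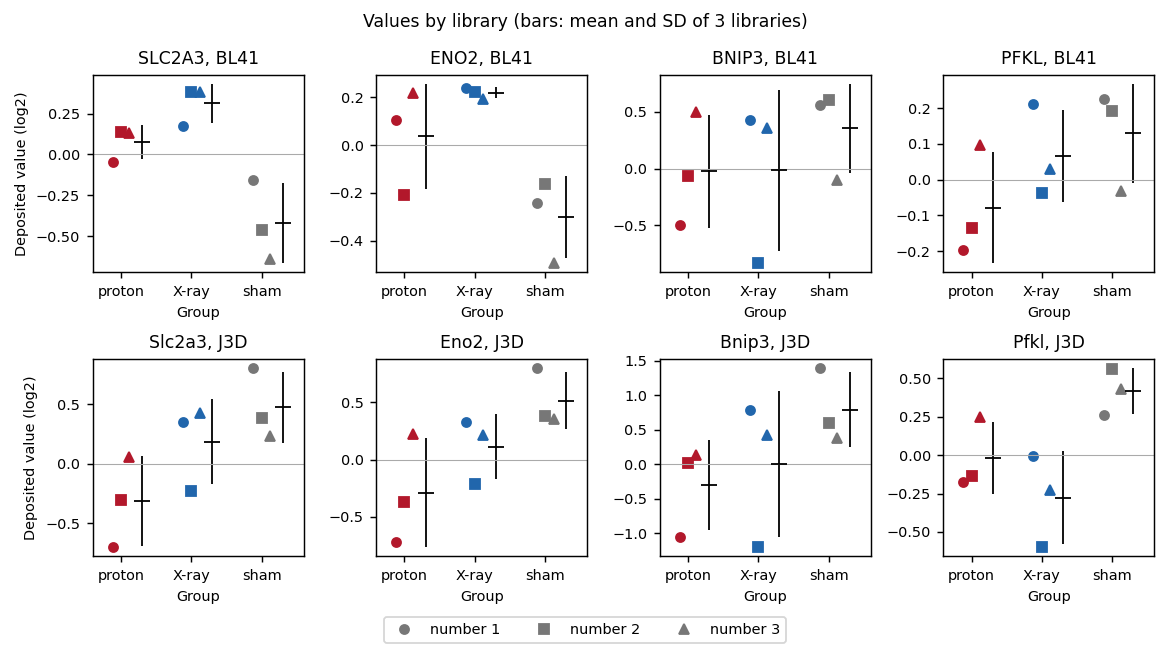
Deposited log2 values per library of a glucose transporter, an enolase, a mitophagy gene and a phosphofructokinase in BL41 (top) and J3D (bottom), by group; circles, squares and triangles are numbers 1, 2 and 3, and the bars give the mean and SD of 3 libraries. SLC2A3 and ENO2 have all X-ray libraries above sham in BL41, while in J3D all proton libraries of Slc2a3, Eno2, Bnip3 and Pfkl lie below sham.

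Single libraries carried much of the spread. In J3D, X-ray library 2 held the lowest of the 9 values for 15 of 34 members (3.82% of all genes). Proton library 1 did so for 10 of 34, a share near the 24.5% of all genes. Without J3D X-ray library 2 the members lower after X-rays at an unadjusted p under 0.05 numbered 3 (4.22% of all genes), and without X-ray library 3 there were 11 (1.70%). For protons that count was 1 of 34 without proton library 1, a share near the 2.45% of all genes, and 3 of 34 without proton library 2, beside 6.32% of all genes. The count below 0 was steadier, from 29 to 30 of 34 after protons and from 28 to 31 after X-rays in the fits that left out 1 library each. In BL41, X-ray library 2 was lowest for 13 of 35 members (4.58% of all genes) and proton library 1 for 8 (7.31%). Without BL41 X-ray library 2 the members below 0 after X-rays numbered 10 of 35, against 18 with it.

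The other hypoxia genes spread more widely within groups than the glycolytic enzymes. The median within-group SD was 0.20 for enzymes and 0.47 for the other hypoxia genes in J3D (0.16 over all genes), and 0.15 and 0.33 in BL41 (0.15 over all genes). In J3D the enzymes had a median fold change of −0.35 after protons and −0.40 after X-rays, and the other hypoxia genes of −0.62 and −0.25, while all genes had 0.046 and 0.0023. Number by number, the enzyme median was −0.46, −0.35 and −0.14 after protons and −0.23, −0.55 and −0.23 after X-rays. For the other hypoxia genes it was −1.43, −0.26 and −0.23 after protons and −0.40, −0.68 and 0.12 after X-rays. The enzyme median was thus below 0 within each number after both beams, and that of the other hypoxia genes in all but number 3 after X-rays. Among enzymes 11 of 16 were lower in all 3 numbers after each beam, and among the other hypoxia genes 8 of 11 after protons and 2 of 11 after X-rays. Over all genes this held for 18.2% after protons and 12.9% after X-rays, so the 2 of 11 lies near the share of all genes. Without the libraries of number 1, left out after their wide spread had been seen, the medians after protons were −0.23 for enzymes and −0.21 for the other hypoxia genes, and after X-rays −0.41 and −0.26.

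In BL41 both classes changed sign between numbers. Enzymes had a median fold change of −0.083 after protons and −0.073 after X-rays, and the other hypoxia genes of 0.042 and 0.051. By number, the enzyme median was −0.28, −0.093 and 0.15 after protons and −0.015, −0.28 and 0.061 after X-rays. The other hypoxia genes gave −0.34, 0.059 and 0.61 after protons and 0.024, −0.34 and 0.58 after X-rays. In number 3 the sham library lay low, with a median of −0.16 over the other hypoxia genes, against 0.52 in proton library 3 and 0.37 in X-ray library 3. No test was made of 1 class against the other.

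**Figure D4:**
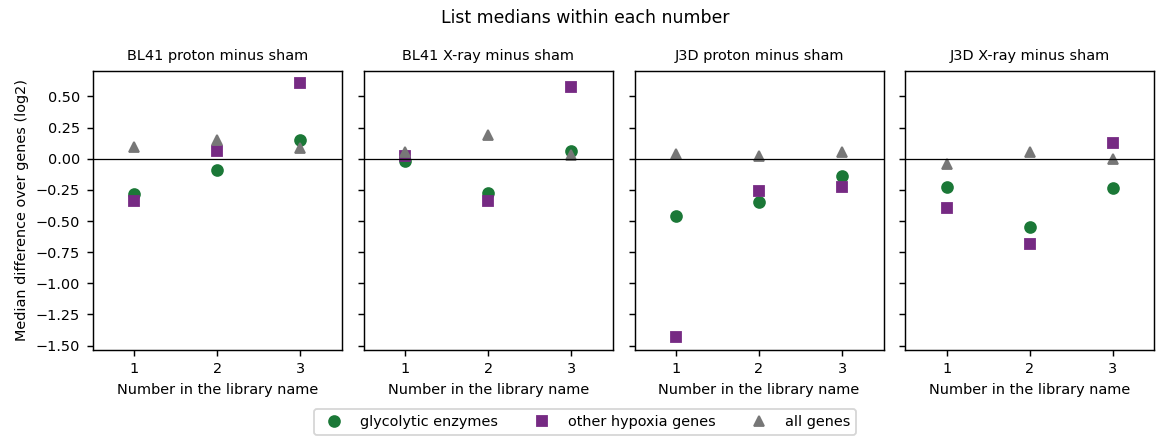
Median difference from sham within each number, for glycolytic enzymes (circles), other hypoxia genes (squares) and all genes of the table (triangles), on a log2 scale, in 4 comparisons. In J3D the enzyme median lies below 0 in all 3 numbers for both beams, and in BL41 both classes run from below 0 to above 0.

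Protons and X-rays were compared with each other directly. Neither line had a member or any other gene past the threshold with limma, and 0 members had an unadjusted p under 0.05 in either line (11.8% of all genes in BL41 and 11.9% in J3D). With quantile normalization 1 gene of the BL41 table was called (0.00664%), no member, and 0 in J3D. SLC2A3 in BL41 had a proton minus X-ray difference of −0.24 ± 0.12 (95% interval −0.51 to 0.039, limma adjusted p = 0.465), with every proton library below every X-ray library (9.12% of all genes, and 11% above). In J3D Ldha was the 1 member without overlap, against 8.78% of all genes above and 6.77% below. Its proton libraries lay above its X-ray libraries by 0.080 ± 0.091 (95% interval −0.12 to 0.28). These SEs and intervals come from the model without the number as a block. With the block the SE was 0.14 for SLC2A3 and 0.13 for Ldha, so that the intervals would be wider. The interval for Ddit4 in J3D runs from −1.72 to 0.70, so that for this gene sizeable differences in either direction were not excluded.

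Genes next to the module were taken from lists on other branches of carbohydrate metabolism and on the rest of the hypoxia pathway. In BL41, of 46 carbohydrate genes 4 rose after protons and 6 after X-rays, and none fell. They included GPD2, the mitochondrial glycerol phosphate dehydrogenase (0.45 ± 0.088 and 0.43 ± 0.088, limma adjusted p = 0.0295 and 0.0298), and PGD of the pentose phosphate pathway (0.35 ± 0.072 and 0.32 ± 0.072, limma adjusted p = 0.0311 and 0.0378). MINPP1 (0.28 ± 0.059) and the glycogen synthase GYS1 (0.46 ± 0.11) rose after protons, and the glycogen phosphorylase PYGL (0.41 ± 0.091) and PFKFB2 (0.49 ± 0.11) after X-rays. The shares that rose were 8.7% after protons and 13% after X-rays, beside 5.91% and 4.83% of all genes. With trimmed means these 6 genes had limma adjusted p from 0.0664 to 0.174, and with the number as a block from 0.142 to 0.180.

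Of 46 further hypoxia genes in BL41, 4 rose after protons (8.7%, beside 5.91% of all genes) and 2 after X-rays (4.35%, beside 4.83%). HMOX1, a haem oxygenase that NRF2 also controls, rose by 1.34 ± 0.16 after protons and 1.33 ± 0.16 after X-rays (limma adjusted p = 0.0129 and 0.0110). The collagen lysyl hydroxylase PLOD1 rose by 0.65 ± 0.075 and 0.64 ± 0.075 (limma adjusted p = 0.0129 and 0.00893), and HIF1AN, the asparaginyl hydroxylase that inhibits HIF, by 0.36 ± 0.068 after protons (limma adjusted p = 0.0286). GYS1 is on this list as well. HMOX1 and PLOD1 kept their calls with trimmed means, HIF1AN and GYS1 lost theirs (limma adjusted p = 0.0749 and 0.0953), and none of these genes was called with the block (limma adjusted p from 0.0942 to 0.166). The list medians were 0.11 after protons and 0.083 after X-rays, beside 0.12 and 0.093 over all genes.

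In J3D 0 genes of either list passed with limma. Of 43 carbohydrate genes 8 had an unadjusted p under 0.05 after protons (18.6%) and 2 after X-rays (4.65%), and of 45 further hypoxia genes 15 (33.3%) and 5 (11.1%). Over all genes of the table the shares were 19.8% after protons and 6.24% after X-rays. The smallest p on the hypoxia list was that of Arnt, the constant partner of HIF1A, after protons (−0.40 ± 0.10, limma adjusted p = 0.247) and of Plod1 after X-rays (0.29 ± 0.094, limma adjusted p = 0.622). On the carbohydrate list it was that of 9630033F20Rik after protons (0.57 ± 0.21) and of Pck2, mitochondrial phosphoenolpyruvate carboxykinase, after X-rays (−0.69 ± 0.26). The medians were −0.061 and −0.11 for the further hypoxia genes and −0.053 and −0.015 for the carbohydrate branches after protons and X-rays, against −0.40 and −0.32 over the 34 members.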

How the data were processed

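RNA was sequenced in 18 libraries, 3 per group, line and beam. The submitters' processing notes list TopHat2, hg19 and mm10 without roles, while counting, strand setting, annotation and normalization stand as not given in the sources used here. Per line, the authors deposited 1 table of log2 values (15069 and 12264 genes). No source names the base of the logarithm, and another base would scale every fold change alike. From the values, each gene was centred within a number over 4 libraries, of which 3 were analysed here: where 2 of the 3 tied at the lowest value (within 1e-06), the other library was implied to lie at that value for 62.1 to 69.6% of genes and below it for 0. Depth is therefore unknown, and no interval from counts was computed.

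Each line was fitted by itself on 9 libraries with limma 3.58.1 (statmod 1.5.0, R 4.3.3), with a mean per group, a trend on the mean deposited value and robust moderation, without filter or pseudocount, and p-values were adjusted by Benjamini-Hochberg over all genes of the table. Tables and plots were made in Python 3.11.15 (pandas 2.3.3, numpy 2.4.6, matplotlib 3.10.9). The model has 6 residual degrees of freedom, and 4 remain once the number enters as a block. Since the centring had already removed a mean per number, the model without the block is too liberal, and values with the block stand beside the calls. Unless the block is named, the SEs and intervals given come from the model without it and may be too narrow. The code of both fits was tested on simulated data. Same-numbered libraries correlated at −0.73 to 0.31 after group means were removed, which the centring biases, and the labels do not say that a number marks a shared day or batch, so the model above does not pair the libraries, and differences within a number are given as descriptions only.

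Members and lists were chosen with earlier results of these data known. Described by name are members past the threshold, the 6 with the smallest p in each comparison with sham, and SLC2A1, HK2, LDHA, PDK1, VEGFA, HIF1A, BNIP3 and DDIT4. Outside this rule, ENO1 in BL41 is named as the paralog of ENO2, and PFKP for its signs in both lines. Pdk3, Pfkfb3, Gapdh and Aldoc in J3D are also named outside it. Of each list of other pathway genes, at most 4 past the threshold are named, or else the 1 with the smallest p. Alternatives were the block, trimmed means, quantile normalization, no trend or robust moderation, no rows at the floor, 1 row per symbol, and each library left out.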

Additional observations from a re-analysis of the deposited data

Results flagged for a closer look

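Of 32 members in both tables, 3 had a difference from sham of one sign within all 3 numbers in one line and of the other sign within all 3 numbers in the other line. The share of all genes that meet this rule was not computed, so the count is a description. Differences of one sign were common: after protons 5401 of 15069 BL41 genes were higher in all 3 numbers and 1320 lower. In J3D 3696 of 12264 were higher and 2232 lower. The difference between the lines was not tested, since their tables were normalized separately. ENO2 had an X-ray minus sham fold change of 0.52 in BL41 and −0.40 in J3D. SLC2A3 had a proton minus sham fold change of 0.49 in BL41 and −0.79 in J3D. The platelet phosphofructokinase PFKP had a proton minus sham fold change of 0.15 in BL41 (limma adjusted p = 0.419) and −0.40 in J3D (limma adjusted p = 0.247). Of these values, ENO2 and SLC2A3 in BL41 passed the limma threshold in the model without the block, and the others did not. With the block these 2 calls were lost (limma adjusted p = 0.146 for ENO2 and 0.166 for SLC2A3). They were also lost with trimmed means (0.0975 and 0.122). In BL41 the PFKP value was 0.033 with trimmed means.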

How the results depend on the processing

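With the number from the library names as a replicate block, BL41 had 0 members and 0 genes called after protons and 0 and 0 after X-rays. In J3D this block left 5 members lower at an unadjusted p under 0.05 after protons (4.08% of all genes) and 3 after X-rays (1.44%). With trimmed means, BL41 had 0 members and 346 genes called after protons and 1 member and 334 genes after X-rays, against 1 member and 1027 genes and 2 members and 806 genes as deposited. With quantile normalization the BL41 calls were 0 members and 533 genes after protons and 0 members and 129 genes after X-rays. Without trend and robust moderation 0 members were called after protons and 1 after X-rays. In the BL41 comparison of protons with X-rays, quantile normalization called 1 gene. Signs turned in BL41 for HK2 after X-rays (−0.045 with trimmed means, also with the block, and −0.063 with quantile normalization) and after protons (−0.020 and −0.0021). After protons they also turned for HIF1A (−0.090 and −0.089), VEGFA (−0.059 and −0.065) and SLC2A1 (−0.084 and −0.064), and with quantile normalization for DDIT4 (−0.0085). Without the J3D libraries of number 1, chosen after seeing the data, Hk2 was 0.0068 after protons and 0.048 after X-rays, and 1 member was lower at an unadjusted p under 0.05 after protons (3.8% of all genes).

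Leaving out 1 library at a time, BL41 had 0 to 1 members and 0 to 710 genes called after protons (0 genes without proton library 3), and 0 to 2 members and 0 to 808 genes after X-rays (0 genes without X-ray library 1), with 12 to 23 and 10 to 21 members below 0. Proton against X-ray called 0 to 1 genes in each line, and J3D protons 0 to 1. Members lower at an unadjusted p under 0.05 in J3D ranged from 1 (2.45% of all genes) to 15 (10.3%) after protons. After X-rays they ranged from 3 (4.22% of all genes) to 11 (1.70%). Fold changes after protons ranged from −0.058 to 0.15 for HIF1A, −0.16 to 0.17 for VEGFA, −0.066 to 0.15 for SLC2A1, −0.027 to 0.21 for HK2, −0.12 to 0.42 for DDIT4 and −0.47 to 0.034 for PDK1 in BL41, and −0.14 to 0.077 for Hk2 in J3D. After X-rays they ranged from −0.071 to 0.16 for HK2, −0.11 to 0.098 for HIF1A, −0.014 to 0.30 for VEGFA and −0.59 to 0.042 for BNIP3 in BL41, and −0.24 to 0.023 for Hk2 and −0.038 to 0.37 for Hif1a in J3D. Of 64 fold changes of named members, 51 kept their sign in every alternative. The cause of these changes was not tested. With 3 libraries per group, a centring that includes a library not analysed here and no depth in the files, absolute levels and the counting error of low genes cannot be given.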
